A study of Mus musculus with 5 samples.

Results

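The 53 genes described here encode proteins that act in the G2 phase of the cell cycle and in mitosis, and were chosen by symbol from a list. All 53 had a row among the 30478 genes of the table, and all 53 passed the filter on low values. They were measured by strand-specific RNA sequencing of mouse peritoneal macrophages, phagocytes of the abdominal cavity that had been isolated by flow sorting. The wt group has 3 libraries of C57BL/6 mice: wt 1 from a male of 13 weeks, wt 2 from a female of 13 weeks and wt 3 from a female of 9 weeks. The mutant group has 2 libraries from C57BL/6 females of 8 weeks that are homozygous for a Samhd1 deletion (del/del) and for a cGAS-GFP knock-in (ki/ki). The effects of these alleles, which occur together, cannot be told apart, nor can they be told apart from the younger age of the mutants. The 3 wt libraries differ from each other in sex or age and so come from different animals. Whether the 2 mutant libraries come from separate animals is not stated in the labels, so the spread between them may be technical. The p-values therefore speak only for the spread among these libraries.

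Cells prepare for division in G2 by building up cyclins A and B, which activate the kinase CDK1. CDK1, the Aurora kinases and Polo-like kinase then drive chromosome condensation, spindle assembly and kinetochore attachment, until the anaphase-promoting complex (APC/C) destroys cyclin B and cytokinesis splits the cell. Transcripts of these genes are known to peak together in G2 and mitosis and to be scarce in resting cells, under control of the DREAM and MYB-MuvB complexes and FOXM1. Resident peritoneal macrophages are known to maintain themselves in part by dividing locally.

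Both targeted transcripts were low in each mutant library, Samhd1 at 1279 and 1431 normalized counts against 16780 to 18270 in wt, and Cgas at 184 and 85.05 against 967.7 to 1211. A normalized count is a read count divided by the size factor of its library. Depth was 27282354 to 33119434 reads per library, and no member had fewer than 122 reads in any library. The general macrophage markers Adgre1, Csf1r, Cd68 and Lyz2 were abundant in all 5 libraries, whereas Gata6 and Timd4, which define resident large peritoneal macrophages, had 0 reads in each. At this depth, 0 reads allows up to 0.0906 to 0.11 CPM (reads scaled to a common library total), a limit that covers counting error only. The 2 mutant libraries stood apart from each other in the genes described here, so each is given on its own.

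Mutant 2 held far fewer mitotic transcripts than any wt library, while mutant 1 lay slightly below wt. Of the 53 genes, 52 were lower in mutant 2 than in every wt library, with a median of 39.8% of the wt mean and a range of 31.9% to 114%. In mutant 1, 48 were lower than in every wt library, but the median was 86.7% of the wt mean. Among all 14977 genes tested, 40.2% lay below every wt library in mutant 2 and 35.7% in mutant 1. In both mutants together, 48 of the 53 genes lay below every wt library, against 26.9% of all genes. The exception in mutant 2 was Cenpa, which encodes the centromeric histone CENP-A, at 114% of the wt mean. In bulk RNA, fewer dividing cells and less of these transcripts per dividing cell cannot be told apart.

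The wt libraries were close to each other, although they differ in sex and age. The coefficient of variation over the 3 wt libraries had a median of 4.78% and ran from 1.37% to 13.3% across the 53 genes. Within this narrow range wt 2 was the highest wt library for 48 of the 53 genes. On the log2 scale, as log2(normalized count + 2) minus the wt mean, the median of the 53 genes was -0.20 in mutant 1 and -1.32 in mutant 2. The medians over all genes tested were -0.01 and 0.00.

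**Figure D1:**
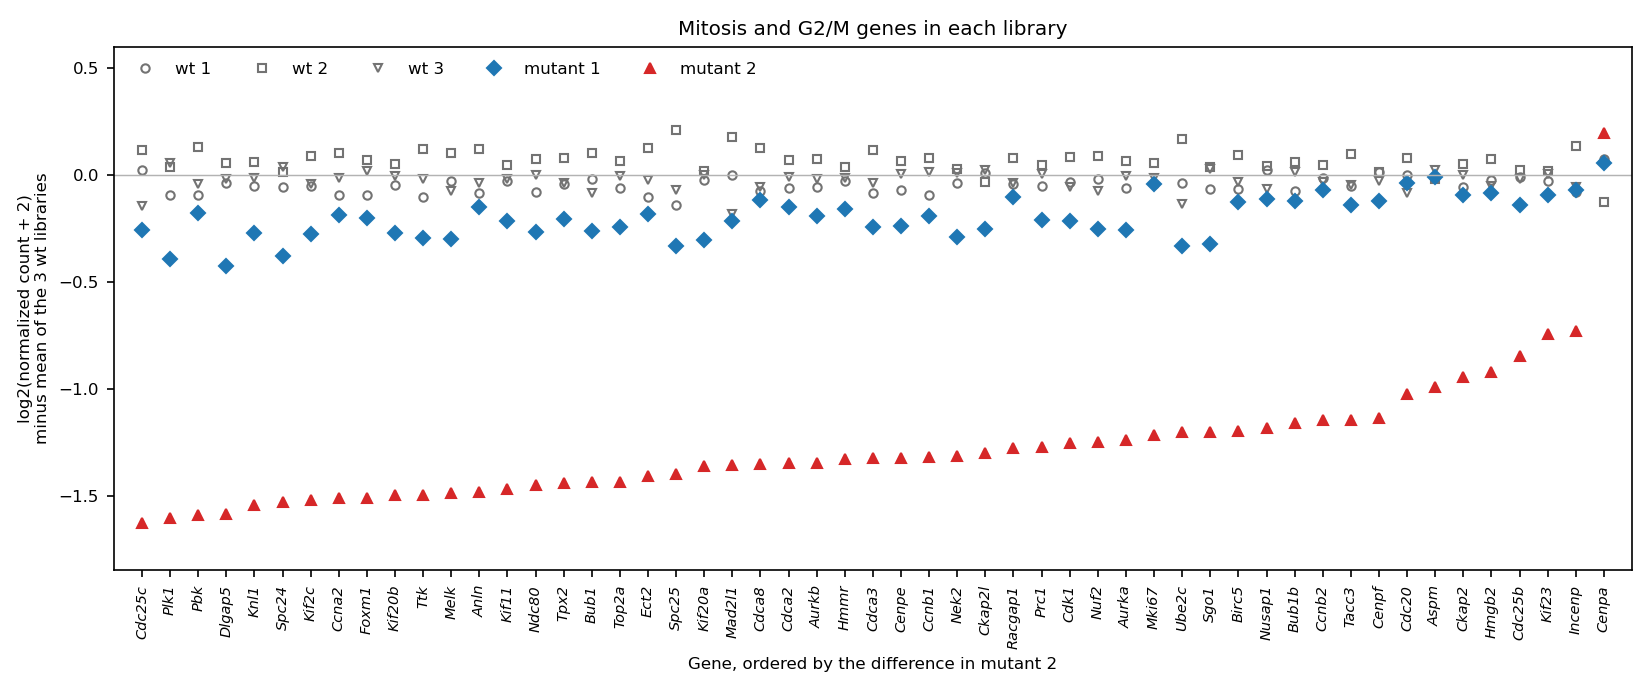
Each of the 53 genes (x axis, ordered by mutant 2) is plotted as log2(normalized count + 2) minus the mean of the 3 wt libraries (y axis), with grey open symbols for wt 1 to 3, blue diamonds for mutant 1 and red triangles for mutant 2. Mutant 2 runs from -1.63 for Cdc25c to 0.20 for Cenpa, and mutant 1 runs from -0.43 for Dlgap5 to 0.06 for Cenpa.

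In the test of 2 mutant against 3 wt libraries, each of the 53 genes missed the threshold. Across all genes, limma called 4.89% of 14977 lower in the mutant and 3.71% higher at an adjusted p of 0.05. Of the 53 genes, limma called 0 lower and 0 higher after Benjamini-Hochberg adjustment, and 33 lower at an unadjusted p under 0.05, against 17.7% of all genes. The log2 fold changes, mutant minus wt, ran from -1.01 to 0.13 with a median of -0.77, against 0.00 over all genes, and 52 were negative, against 49.9% of all genes. The lowest limma adjusted p was 0.0885, for Dlgap5. The authors' deposited table has 0 of the 53 genes past 0.05, with adjusted p of 0.0854 to 0.434, where it has 3.66% of all its genes lower in the mutant.

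Other tests on the recovered reads placed the genes near the same limit. Both edgeR and limma-voom called 0 of the 53 genes, where they called 4.47% and 4.55% of all genes lower. At an unadjusted p under 0.05 edgeR had 10 lower and limma-voom 36, against 16.1% and 17.0% of all genes. DESeq2, which called 8.73% of all genes lower, called 5 members lower: Dlgap5, Plk1, Sgo1, Ube2c and Spc24, with DESeq2 adjusted p of 0.0278 to 0.0491. These 5 genes also had the 5 lowest limma adjusted p, 0.0885 to 0.101, and lay at 74.3% to 79.7% of the wt mean in mutant 1.

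With mutant 1 left out, limma called 52 of the 53 genes lower, all but Cenpa, where it called 19.9% of all genes lower. With mutant 2 left out it called 3, Dlgap5, Plk1 and Kif20a, where it called 5.71% of all genes lower. Both of these fits assume that the 1 mutant library left varies as the wt libraries do. Leaving out wt 1, wt 2 or wt 3 cut the limma calls over all genes from 1288 to 202, 366 or 214. A call lost in these fits, as for some genes below, therefore says little about that gene. With any 1 wt library left out, limma called 0 of the 53 genes, where it called 1.17%, 1.93% and 1.2% of all genes lower without wt 1, wt 2 and wt 3. It also called 0 with a pseudocount of 0.5 or 8 (4.81% and 4.93% of all genes lower), no filter (2.26%), a minimum of 50 (6.62%), a robust prior (5.17%) and library totals as scaling (5.01%). The difference between the mutants had no replicate and was not tested.

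**Figure D2:**
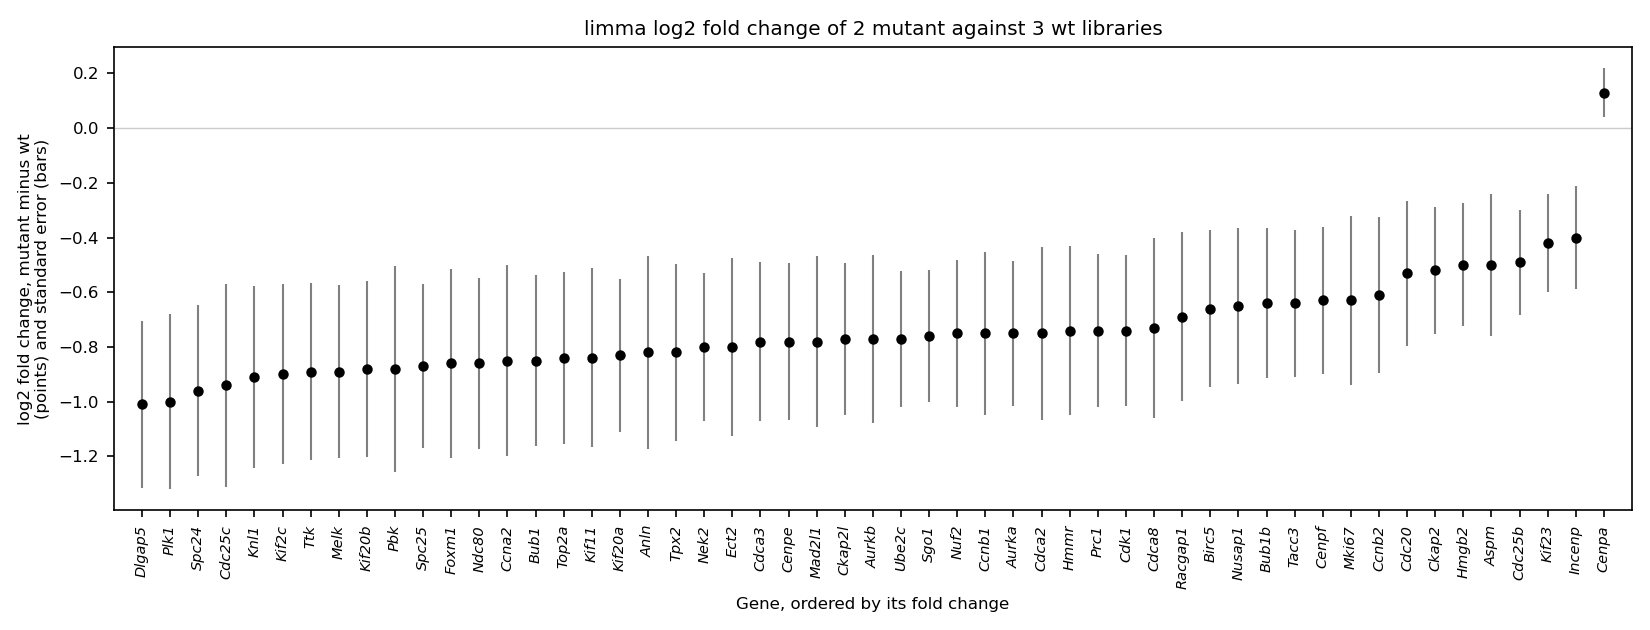
Points give the limma log2 fold change of the normalized count + 2, mutant minus wt (y axis), for each of the 53 genes (x axis), and bars give its standard error from 3 wt and 2 mutant libraries. Of the 53 points 52 lie below 0, and the standard errors run from 0.0896 to 0.376.

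The gap between the mutants was of similar size in most genes. Mutant 2 was below mutant 1 in 52 of 53 genes, against 49.4% of all genes tested, and below 0.5 of mutant 1 in 42 of 53, against 5.07%. The log2 difference, mutant 2 minus mutant 1, had a median of -1.13, with the middle 50% of genes between -1.20 and -1.02. Of all genes tested, 10% lay below -0.60 on this scale, and 52 of the 53 genes did. Reads of the 53 genes together made up 0.471%, 0.505% and 0.473% of all reads in wt 1 to 3. They made up 0.427% in mutant 1 and 0.199% in mutant 2.

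**Figure D3:**
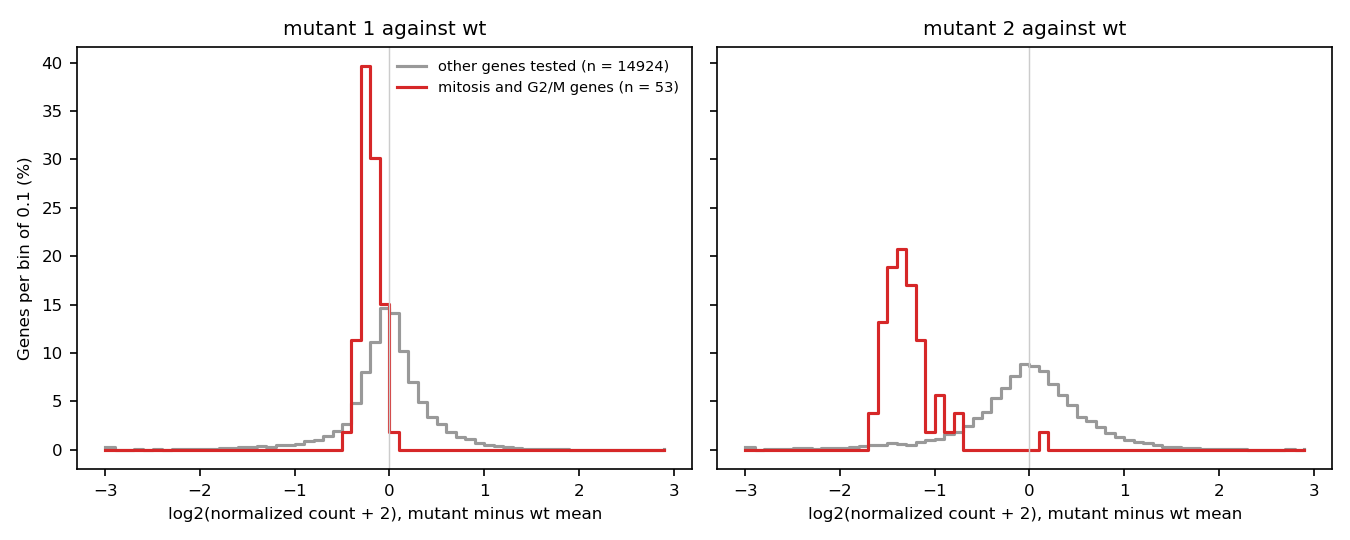
The 2 panels show, for mutant 1 and mutant 2, the share of genes (y axis, percent per bin of 0.1) by log2(normalized count + 2) minus the wt mean (x axis), in red for the 53 genes and in grey for all other genes tested. Values beyond 3 on either side are placed in the outermost bins. In mutant 1 the red curve lies within the grey one, around -0.20, and in mutant 2 it forms a separate peak around -1.32.

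Other measures differed between these libraries too. Reads on Rn18s, the 18S ribosomal RNA, took 5.28% and 4.04% of mutants 1 and 2 against 0.599% to 1.64% of wt. Leaving those reads out of the total, the 53 genes made up 0.451% of reads in mutant 1 and 0.207% in mutant 2, against 0.474% to 0.513% in wt. The 10 general macrophage markers summed to 19500 and 28400 CPM in mutants 1 and 2 against 12100 to 13500 in wt, led by Lyz2. By limma 3 of the 10 rose and 1 fell, where 3.71% of all genes rose and 4.89% fell. Lyz2 was among those that rose (log2 fold change 1.58, limma adjusted p = 0.0159). With any 1 wt library left out 0 of these 3 rises remained called (limma adjusted p of 0.08 to 0.0956 for Lyz2), while the fall, of Fcgr1, named after its values were seen, did (limma adjusted p of 0.0118 to 0.0175).

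Markers of other cell types did not move together. The 7 B cell markers summed to 197 and 225 CPM in mutants 1 and 2 against 93.6 to 118 in wt. Of these 1 rose, where 3.71% of all genes did. It was Ighm, the most abundant (log2 fold change 1.16, limma adjusted p = 0.0105). That call ended when wt 1 or wt 3 was left out (limma adjusted p = 0.0742 and 0.0676). The 8 T and NK cell markers summed to 176 and 190 against 220 to 253 CPM, led by Il7r, which fell (log2 fold change -0.56, limma adjusted p = 0.0127, and 0.0949 and 0.0807 without wt 1 and wt 3). Cd4, named after its values were seen, rose in the same list from 227.9 to 309.6 in wt to 633.2 in mutant 1 and 1226 in mutant 2 (limma adjusted p = 0.0248, and 0.0963 to 0.106 without 1 wt library). Of the T cell receptor complex, Cd3e and Cd3g had at most 1 read in any library and Cd3d at most 3. The 6 neutrophil markers summed to 215 and 271 against 101 to 139 CPM, led by Mmp8. Of the 4 tested, only Mmp8 rose (log2 fold change 1.39, limma adjusted p = 0.00141), where 3.71% of all genes did. S100a8, S100a9 and Csf3r, named after their values were seen, had log2 fold changes of 0.01, -0.10 and 0.71 (limma adjusted p = 0.984, 0.743 and 0.177). Ly6g had at most 1 read in any library. The 6 dendritic cell markers, led by Ccr7, summed to 5.4 and 8.83 against 7.69 to 9.69 CPM. Of the 5 tested, only Ccr7 was called, and it fell (log2 fold change -1.18, limma adjusted p = 0.0305), where 4.89% of all genes fell. Without 1 wt library its limma adjusted p was 0.0844 to 0.139. Fold changes were negative for 3 of the 5 and positive for 2. Sums were 11.8 and 8.03 against 12.0 to 14.5 CPM for 6 large peritoneal macrophage markers. Of these 6, Icam2 fell (log2 fold change -0.99, limma adjusted p = 0.0184) and Marco rose from 4.635 to 8.974 in wt to 92.97 in mutant 1 and 43.59 in mutant 2 (limma adjusted p = 0.0119), both named after their values were seen. Neither call held without wt 1 or without wt 3. Mast cell (2 of 6 markers in the table), mesothelial and fibroblast (6) and erythroid (4 of 6) markers summed to at most 2.54 CPM in any library. Whether these differences have a part in the fewer mitotic transcripts of mutant 2 was not tested.

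Promoters of many of the genes hold the sequence elements through which mitotic genes are known to be controlled. These elements are the cell cycle genes homology region (CHR), to which the MuvB core of DREAM binds, and the CCAAT box, to which NF-Y binds. RefSeq promoters on GRCm38.p6, from 250 bases before to 50 bases after the gene start, were found for 42 of the 53 genes, as 44 promoters. The others are Pbk, Tpx2, Ccna2, Dlgap5, Spc24, Cdc25c, Incenp, Foxm1, Aurkb, Kif20a and Cdca2. A CHR, searched as TTTGAA or TTCGAA on both strands, was present in 35 of 44 (79.5%), against 19.2% of all 32841 promoters. A CCAAT box, searched as CCAAT on both strands, was present in 33 of 44 (75%), against 37.4%, and at least 2 of them in 22 of 44 (50%), against 11.7%. Both elements occurred in 30 of 44 (68.2%), against 7.52% of all promoters. An E2F element, searched as TTTCCCGC, TTTCGCGC, TTTGCCGC or TTTGGCGC on both strands, was present in 1 of 44 (2.27%), against 2.27%. Each motif was searched on its own, so that matches of different motifs that share bases were all counted, and a match is a description and not a shown binding site.

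The promoters printed here are those of the 4 genes lowest in mutant 2 among the 42 with a RefSeq promoter, and of Cenpa, the gene that was not lower. Capitals mark CHR and CCAAT matches on either strand, and no E2F match occurs in them. The Kif2c window follows the RefSeq start, which lies inside the gene as GENCODE M21 gives it.
Plk1, chr7:122159185-122159484, plus strand: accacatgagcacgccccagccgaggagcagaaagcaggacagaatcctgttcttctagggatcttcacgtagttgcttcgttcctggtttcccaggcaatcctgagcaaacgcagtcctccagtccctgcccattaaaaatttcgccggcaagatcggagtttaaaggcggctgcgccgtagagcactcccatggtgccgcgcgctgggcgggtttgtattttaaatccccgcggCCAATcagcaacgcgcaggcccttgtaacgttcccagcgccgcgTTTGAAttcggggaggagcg
Knl1, chr2:119046869-119047168, plus strand: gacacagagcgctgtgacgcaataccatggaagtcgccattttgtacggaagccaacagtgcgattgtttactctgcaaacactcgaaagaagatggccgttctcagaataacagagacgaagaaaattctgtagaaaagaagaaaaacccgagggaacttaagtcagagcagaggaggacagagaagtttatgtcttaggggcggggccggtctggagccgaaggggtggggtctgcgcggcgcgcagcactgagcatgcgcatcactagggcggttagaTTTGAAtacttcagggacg
Kif2c, chr4:117178723-117179022, minus strand: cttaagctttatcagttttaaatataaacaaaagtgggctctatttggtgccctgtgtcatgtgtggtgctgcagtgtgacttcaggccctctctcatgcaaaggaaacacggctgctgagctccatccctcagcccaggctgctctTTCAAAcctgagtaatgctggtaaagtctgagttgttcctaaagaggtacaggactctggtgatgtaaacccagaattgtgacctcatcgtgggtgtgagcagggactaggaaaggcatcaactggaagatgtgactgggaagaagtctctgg
Ttk, chr9:83834439-83834738, plus strand: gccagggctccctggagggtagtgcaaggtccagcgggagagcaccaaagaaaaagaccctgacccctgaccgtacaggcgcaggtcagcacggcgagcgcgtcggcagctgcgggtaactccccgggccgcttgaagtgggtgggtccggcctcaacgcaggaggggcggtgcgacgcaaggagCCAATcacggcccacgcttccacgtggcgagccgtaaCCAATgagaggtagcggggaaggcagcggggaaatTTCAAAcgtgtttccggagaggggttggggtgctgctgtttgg
Cenpa, chr5:30666636-30666935, plus strand: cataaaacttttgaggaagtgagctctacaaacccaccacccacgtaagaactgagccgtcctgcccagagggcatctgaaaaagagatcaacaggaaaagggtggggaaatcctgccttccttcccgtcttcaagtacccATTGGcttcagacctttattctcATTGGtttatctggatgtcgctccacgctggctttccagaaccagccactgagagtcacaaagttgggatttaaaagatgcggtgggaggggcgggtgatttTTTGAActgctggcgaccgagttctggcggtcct
The Cenpa promoter holds 1 CHR and 2 CCAAT boxes, as does that of Ttk, while mutant 2 had 114% of the wt mean for Cenpa and 35.2% for Ttk. The promoters of Plk1, Knl1 and Kif2c hold 1 CHR each, and of these that of Plk1 alone has a CCAAT match.

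Among proteins of the chromosomes themselves, Mki67 and Top2a were the most abundant of the 53 genes by normalized count. Mki67 (GENCODE M21, GRCm38, chromosome 7, 135689784 to 135716361, minus strand) encodes Ki-67, which coats mitotic chromosomes and is the standard marker of proliferating cells. It read 15360, 16430 and 15680 normalized counts in wt 1 to 3, 15380 in mutant 1 and 6795 in mutant 2. Mutant 1 thus lay within the wt range and mutant 2 far below it, at log2 differences of -0.04 and -1.22 from the wt mean. The log2 fold change of both mutants together was -0.63 (SE 0.31), with an adjusted p of 0.218 by limma. Top2a, the topoisomerase that untangles sister chromatids, read 12800, 13940 and 13280 in wt, 11260 in mutant 1 and 4925 in mutant 2. Both mutants were below all wt libraries there, mutant 2 at 36.9% of the wt mean. Hmgb2, a chromatin protein, was less reduced in mutant 2, at 52.8%.

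Levels per length put the same genes at the top. Per kilobase of the deposited gene length, the wt mean ran from 83.9 normalized counts for Cdc25c to 1570 for Mki67, with a median of 426. Top2a (1480) and Ccnb2 (1420) were next to Mki67. In mutant 2 the level per kilobase was 675 for Mki67, 642 for Ccnb2 and 546 for Top2a. Incenp, at 554 per kilobase in mutant 2 and 920 in wt, thereby stood above Top2a in that library and below it in wt.

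The cyclins, CDK1 and their activators were all 7 lower than every wt library in both mutants, against 26.9% of all genes. They lay at 31.9% to 55.6% of the wt mean in mutant 2. Their median was -0.19 in mutant 1 and -1.32 in mutant 2 on the log2 scale, and 0 of them passed limma, as in every group of the 53 genes. Ccnb1, the cyclin B1 gene (chromosome 13, 100778650 to 100786570, minus strand), read 2380, 2691 and 2565 in wt, 2228 in mutant 1 and 1019 in mutant 2. Its partner Cdk1 (chromosome 10, 69335146 to 69352938, minus strand) read 2242, 2427 and 2206 in wt, 1972 in mutant 1 and 957.9 in mutant 2. For each of them mutant 2 had about the same share of the wt mean, 40% and 41.8%.

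Ccna2, the cyclin A2 gene, stood at 35% of the wt mean in mutant 2 and Ccnb2 at 45.1%. Foxm1, the transcription factor that drives G2 genes, read 2072, 2321 and 2243 in wt, 1921 in mutant 1 and 775 in mutant 2. It was at 86.8% and 35% of the wt mean in the 2 mutants. The phosphatase genes that remove inhibitory phosphates from CDK1 differed from each other. Cdc25c, at 418.6, 446.9 and 372.6 in wt, read 344.5 in mutant 1 and 131.8 in mutant 2, the lowest share of all 53 genes at 31.9%. Cdc25b, which can act before mitosis, was at 55.6% in mutant 2.

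The 5 genes grouped as mitotic kinases had a median of -1.49 on the log2 scale in mutant 2, and -0.29 in mutant 1; the kinases Cdk1, Aurkb, Bub1, Bub1b and Ttk are described with other groups. Plk1, the Polo-like kinase gene (chromosome 7, 122159439 to 122169873, plus strand), read 1569, 1718 and 1739 in wt, 1273 in mutant 1 and 549.7 in mutant 2. Both mutants were clearly below wt, at 76% and 32.8% of its mean. The log2 difference of -1.0 (SE 0.32) had an adjusted p of 0.0984 by limma and 0.0389 by DESeq2. Aurka, the centrosomal Aurora kinase, stood at 83.7% and 42.2% of the wt mean in mutants 1 and 2, and the centrosomal kinase gene Nek2 at 81.8% and 40.1%. Melk and Pbk, kinases of dividing cells, stood at 35.5% and 32.9% in mutant 2.

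APC/C, the ligase that ends mitosis, is represented by its activator Cdc20 and the ubiquitin-conjugating enzyme Ube2c. Cdc20 read 1671, 1768 and 1579 in wt, 1628 in mutant 1 and 819.7 in mutant 2, so mutant 1 lay within wt. Ube2c, which starts the ubiquitin chains that APC/C builds, read 993.1, 1144 and 926.9 in wt, 808.3 in mutant 1 and 441.2 in mutant 2. Both mutants were below wt for Ube2c, with a log2 fold change of -0.77 (SE 0.248, limma adjusted p = 0.0997, DESeq2 adjusted p = 0.0464).

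The spindle checkpoint, which delays anaphase until all kinetochores are attached, was lower in all 4 genes in both mutants than in every wt library. Of all genes tested, 26.9% lay below every wt library in both. Bub1, a checkpoint kinase, read 1827, 1988 and 1750 in wt, 1546 in mutant 1 and 682.6 in mutant 2. The kinase gene Ttk (MPS1) stood at 35.2% of the wt mean in mutant 2, Mad2l1, which encodes the inhibitor of CDC20, at 38.8%, and the BUBR1 gene Bub1b at 44.7%. In mutant 1 the 4 genes lay between 81.4% and 91.8%.

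The chromosomal passenger complex corrects wrong attachments through its kinase Aurora B. Aurkb read 1926, 2116 and 1977 in wt, 1757 in mutant 1 and 786.7 in mutant 2, or 39.2% of the wt mean. Cdca8 (borealin) was similar in mutant 2 at 39%, and Birc5 (survivin) was at 43.4%. Incenp, the scaffold of the same complex, read 3762, 4366 and 3824 in wt, 3784 in mutant 1 and 2400 in mutant 2. Mutant 2 kept 60.2% of the wt mean for Incenp, so the subunits of this complex were not reduced alike in that library.

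Among kinetochore and centromere genes, 8 of 9 were lower than every wt library in both mutants, against 26.9% of all genes. The subunits of the NDC80 complex, which binds spindle microtubules, stood close together in mutant 2: Spc24 at 34.2% of the wt mean, Ndc80 at 36.5%, Spc25 at 37.5% and Nuf2 at 41.9%. The scaffold gene Knl1 was at 34.2%, the kinesin gene Cenpe at 39.9%, the cohesin protector gene Sgo1 at 43.3% and Cenpf at 45.5%. Spc24 and Sgo1, with log2 fold changes of -0.96 and -0.76, missed the threshold by limma (adjusted p = 0.101 and 0.0959) and passed by DESeq2 (adjusted p = 0.0491 and 0.0448).

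Cenpa (chromosome 5, 30666777 to 30674830, plus strand) departed from every other gene of the set. It read 2941, 2558 and 2881 in wt, 2903 in mutant 1 and 3195 in mutant 2. Mutant 1 lay within wt and mutant 2 above it. The log2 difference of 0.13 (SE 0.0896) had an adjusted p of 0.372 by limma, and 0.145 without mutant 1. No exon of another gene overlaps it in GENCODE M21. Hjurp, the chaperone that loads CENP-A, read 4338, 4875 and 4571 in wt, 4047 in mutant 1 and 2083 in mutant 2, below wt in both.

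Genes of spindle motors and microtubule binding had medians of -0.18 in mutant 1 and -1.32 in mutant 2. Dlgap5 (HURP), which stabilises kinetochore fibres, had the lowest fold change of the 53 genes. It read 1743, 1858 and 1767 in wt, 1330 in mutant 1 and 594.3 in mutant 2, or 74.3% and 33.2% of the wt mean. This difference of -1.01 on the log2 scale (SE 0.306) had an adjusted p of 0.0885 by limma and 0.0278 by DESeq2. Kif11, the motor that separates spindle poles, stood at 36.1% of the wt mean in mutant 2, the microtubule depolymerase gene Kif2c at 34.8% and the spindle assembly factor gene Tpx2 at 36.8%.

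Other spindle genes were less reduced in mutant 2. Aspm, a spindle pole protein, read 3133, 3114 and 3208 in wt, 3131 in mutant 1 and 1585 in mutant 2. Mutant 1 was within wt and mutant 2 at 50.3% of the wt mean. Ckap2 was at 51.9%, Tacc3 at 45.1% and Nusap1 at 43.9%, while Ckap2l (40.5%) and the hyaluronan receptor gene Hmmr (39.7%), whose product binds spindle microtubules, lay near the median of the set.

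In cytokinesis, all 7 genes were below every wt library in both mutants, against 26.9% of all genes. Anln (anillin), a scaffold of the contractile ring, stood at 35.6% of the wt mean in mutant 2. The kinesin gene Kif20b was at 35.3%, the RhoA exchange factor gene Ect2 at 37.5%, Kif20a at 38.9% and the midzone bundling protein gene Prc1 at 41.4%. The centralspindlin subunits differed: Racgap1 was at 41.2%, whereas its partner Kif23 read 3334, 3445 and 3406 in wt, 3184 in mutant 1 and 2025 in mutant 2, or 59.7%. Cdca2, which recruits a phosphatase to chromatin at mitotic exit, and Cdca3 were at 39.1% and 39.8%.

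**Figure D4:**
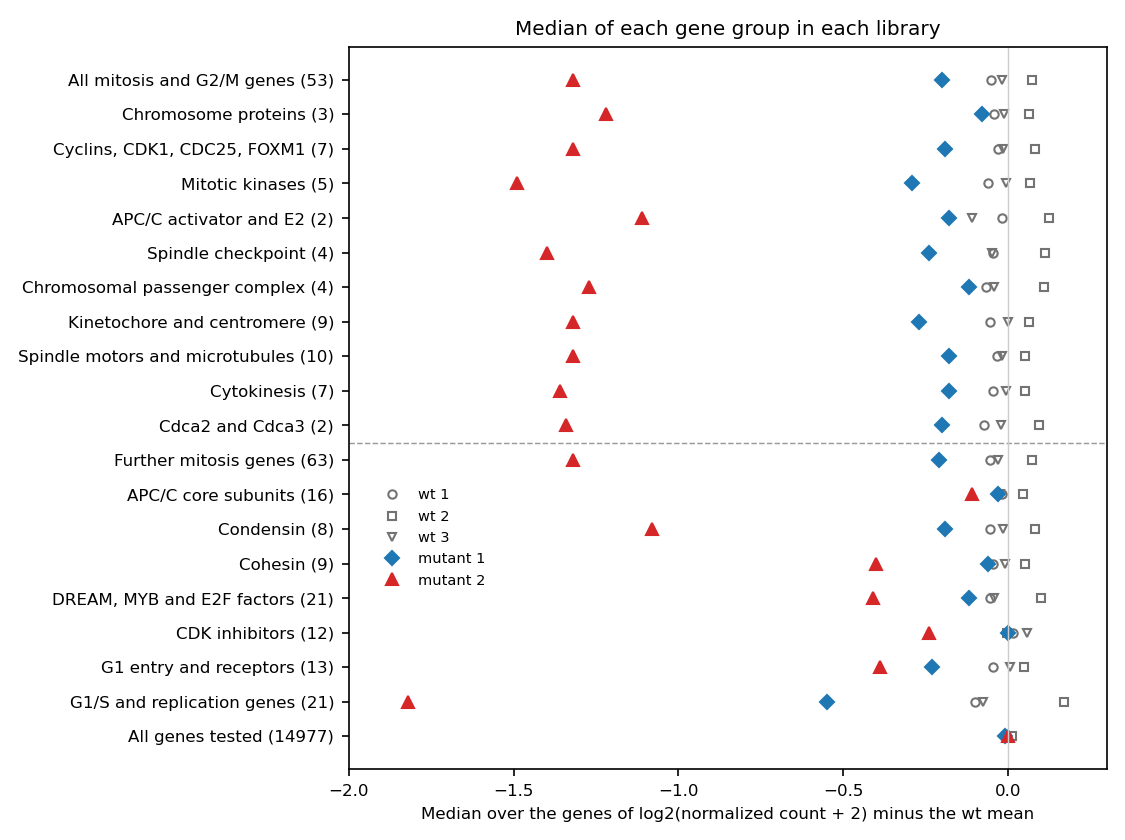
Each line is a gene group, with its number of genes tested in brackets, and each symbol gives the group median in a library of log2(normalized count + 2) minus the wt mean (x axis); grey is wt, blue is mutant 1 and red is mutant 2, and groups above the dashed line are parts of the 53 genes. The 53 genes and the 63 further mitosis genes stand at -1.32 in mutant 2, the G1/S genes at -1.82, and the APC/C core subunits at -0.11.

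Further mitosis genes, 63 that are not among the 53, had almost the same medians, -0.21 in mutant 1 and -1.32 in mutant 2. Of these, 3 of 63 fell and 0 rose by limma, a share near the 4.89% of all genes that fell. With edgeR 2 fell, where 4.47% of all genes did, and with DESeq2 12 fell, where 8.73% did. Pttg1 (securin), which holds separase inactive, fell from 527.2, 558.2 and 523.7 in wt to 331.7 in mutant 1 and 391.2 in mutant 2 (log2 fold change -0.57, limma adjusted p = 0.0298). It is thus a mitotic gene that was lower in mutant 1 than in mutant 2. Bora, an activator of PLK1, fell as well (-0.79, limma adjusted p = 0.0383), and so did the centromere gene Oip5 (-1.30, limma adjusted p = 0.0449), named here after its values were seen. None of the 3 was called when any 1 wt library was left out (limma adjusted p of 0.112 to 0.163). Oip5 shares exonic sequence with Nusap1 on the opposite strand, and whether the counting used strand is not stated in the sources used here.

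The 16 core subunits and cofactors of APC/C had medians of -0.03 in mutant 1 and -0.11 in mutant 2, with 1 that fell and 0 that rose, where 4.89% of all genes fell. That gene was Anapc5, at 10250, 10790 and 9974 in wt, 7470 in mutant 1 and 5558 in mutant 2 (log2 fold change -0.68, limma adjusted p = 0.0303, and 0.116 to 0.138 without 1 wt library). Condensin, which compacts mitotic chromosomes, had medians of -0.19 and -1.08 over 8 genes, and cohesin, which holds sister chromatids together and folds interphase chromosomes, -0.06 and -0.40 over 9. By limma, 0 genes of either complex passed, with 6 lower and 1 higher in condensin and 2 lower and 1 higher in cohesin at an unadjusted p. In mutant 2, differences ran to -1.51 for Smc2 in condensin and to -1.99 for Cdca5 in cohesin, both below the median of the 53 genes; Smc2 was chosen after its values were seen. By edgeR and limma-voom 0 passed as well, and DESeq2 called 1 condensin gene lower and 0 cohesin genes.

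Condensin had 1 gene that went the other way. Ncapg2, a subunit of condensin II, read 3260, 3455 and 3221 in wt, 3766 in mutant 1 and 3958 in mutant 2, above wt in both (log2 fold change 0.22, limma adjusted p = 0.0925). Smc4, the most abundant condensin gene, had -0.54 (limma adjusted p = 0.0988). In cohesin, Cdca5 (sororin) and the acetyltransferase gene Esco2, which act on newly replicated chromatids, had -1.18 and -0.95 (limma adjusted p = 0.122 and 0.139), whereas Rad21, a core subunit, had -0.21 (limma adjusted p = 0.264).

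Among 21 tested factors of the DREAM, MYB-MuvB and E2F systems, 1 fell and 0 rose by limma, near the share of all genes that fell (4.89%). DESeq2 called 5 lower, where it called 8.73% of all genes lower, and 2 higher, where it called 1121 of 14977. Medians were -0.12 and -0.41 in the 2 mutants. Fold changes were negative for 17 and positive for 4, from -1.34 for Mybl2 to 0.30. Mybl2, named after its values were seen, lay at -0.60 in mutant 1 and -2.09 in mutant 2 on the log2 scale. E2f2, an activator E2F, fell from 1937, 2033 and 2121 in wt to 1419 and 868.6 in mutants 1 and 2 (log2 fold change -0.87, limma adjusted p = 0.0471). It was not called without any 1 wt library (limma adjusted p of 0.147 to 0.165), and edgeR called 0 of these genes lower and 1 higher. Rb1, the retinoblastoma gene, had 0.30 (limma adjusted p = 0.0542), and Rbbp4, a histone-binding subunit, -0.26 (limma adjusted p = 0.193).

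Of 12 CDK inhibitors and antiproliferative genes, 1 rose and 0 fell, where 3.71% of all genes rose, with medians of 0.00 and -0.24. Ccng2, an atypical cyclin of resting cells, rose from 1190, 989.8 and 1161 to 1580 and 1563 in mutants 1 and 2 (log2 fold change 0.50, limma adjusted p = 0.0346, and 0.0783 to 0.128 without 1 wt library). Cdkn1b (p27), an inhibitor of CDK2, had 0.52 (limma adjusted p = 0.0565), at 1928 to 2239 in wt, 2684 in mutant 1 and 3454 in mutant 2. Btg1, the most abundant of the list, had 0.41 (limma adjusted p = 0.319).

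The 13 genes of G1 entry and growth factor reception included 4 that fell and 2 that rose by limma, where 4.89% of all genes fell and 3.71% rose. Ccnd2, the cyclin D2 gene, fell most, from 4012, 4812 and 4215 in wt to 901.3 in mutant 1 and 354 in mutant 2 (log2 fold change -2.93, limma adjusted p = 0.00813). Both mutants were far below wt there. Ccnd3 fell by 0.49 on the log2 scale (limma adjusted p = 0.0106). Leaving out wt 1 or wt 3 ended both calls (limma adjusted p of 0.055 to 0.0911), and 0 of the other 4 calls in this list held without any 1 wt library. Thus 0 of the 4 falls and 0 of the 2 rises stayed called without wt 1 or wt 3, where limma called 1.17% and 1.2% of all genes lower. Genes of the list that were not called with all libraries are not part of this count. Csf1r, the receptor for the macrophage growth factor CSF1 and the most abundant of the list, read 50020 to 61230 in wt, 71450 in mutant 1 and 116200 in mutant 2 (log2 fold change 0.68, limma adjusted p = 0.0965).

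The 21 G1/S and replication genes were further below wt than the mitotic genes, at medians of -0.55 in mutant 1 and -1.82 in mutant 2. In both mutants 20 of the 21 lay below every wt library, against 26.9% of all genes. By limma 2 of them, Pcna and Cdt1, fell, where 4.89% of all genes did (limma adjusted p = 0.0305 and 0.0369). By edgeR 2 fell, where 4.47% of all genes did, and by DESeq2 13, where 8.73% did. Neither Pcna nor Cdt1 was called by limma without any 1 wt library (limma adjusted p of 0.119 to 0.143). The difference between the 2 sets of genes was not tested.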

How the data were processed

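Peritoneal macrophage RNA of 3 wt and 2 mutant libraries was analysed. Per the submitters' processing notes, the tools were DESeq 1.6.1, STAR and the featureCounts program of Subread, and the build was mm10. The gene annotation, the strand setting and any filters were not stated in the sources used. The authors' deposited signal is a normalized count per gene: all values (100%) in each library are whole multiples, within 0.001 reads, of what 1 read is worth, so reads were recovered. The authors' deposited log2 fold change and p-value columns cannot rest on these 5 libraries alone, since their mean is above 0 in 3266 rows where these 5 hold 0.

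Genes that reached 10 normalized counts in 2 or more libraries were tested with limma 3.58.1 (R 4.3.3, intensity trend) on log2(normalized count + 2), two-sided, with Benjamini-Hochberg adjustment over all genes. This scale understates changes of low genes. EdgeR 4.0.16 (TMM), DESeq2 1.42.0 and limma-voom on recovered reads, other pseudocounts, filters and scaling, a replicate block and leaving out each library were alternatives. All tests were checked on simulated counts in which a changed gene changed alike in both mutant libraries. That check does not cover genes for which the mutants differ from each other, as most of the 53 did. Of the genes, 97.1% matched GENCODE M21 (GRCm38) by identifier, which gave positions; 13 of the 53 genes share exonic sequence with an antisense gene and 2 with a gene on the same strand. The members and lists were chosen with earlier results of these data known. All members could be named; of each further list, the 2 genes of lowest adjusted p and the most abundant, and of each marker list the most abundant. Promoters were to be printed for the 4 genes lowest in mutant 2 and the one of smallest difference. The table analysed lists genes of chromosomes 1 to 19; sex chromosomes and mitochondrial DNA were not analysed here.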

Additional observations from a re-analysis of the deposited data

How the results depend on the processing

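The count of 0 called members held with edgeR, limma-voom, pseudocounts of 0.5 and 8, no filter, a minimum of 50, a robust prior, library totals as scaling and the replicate block, and without wt 1, wt 2 or wt 3. DESeq2 called 5 members and 2429 of all genes, against 1288 by limma. Leaving out 1 library in turn gave 0 to 52 members called, 202 to 4991 genes called and member medians of -1.32 to -0.20. The 52 and -1.32 are without mutant 1, and the -0.20 is without mutant 2. The member median of -0.77 was -0.66 by edgeR and -0.66 by DESeq2. With library totals as scaling the median in mutant 2 was -1.39 in place of -1.32. No member changed the sign of its fold change under any of the 15 alternatives.

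The labels give wt and mutant libraries shared numbers, and the labels do not say what a number marks. Deviations of same-numbered libraries from their group means correlated at -0.228 for number 1 and -0.362 for number 2, over 14977 genes. Deviations of 2 mutant libraries from their mean are exact opposites. Libraries of unlike number therefore gave 0.228 (wt 1 with mutant 2) and 0.362 (wt 2 with mutant 1). These correlations cannot tell whether a shared number marks a pair. With the replicate block 0 members and 81 of all genes were called, with a member median of -0.78.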
